A study of Mus musculus with 12 samples.

Results

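A group of 10 genes of the tumour necrosis factor (TNF) superfamily was followed in migratory dendritic cells (DCs) of liver, pancreas and duodenum. The genes were chosen by symbol from the 55401 in the deposited tables, and each symbol matched 1 row. The ligands were Tnf, Ltb, Tnfsf9, Cd70 and Tnfsf4, and the receptors were Tnfrsf4, Fas, Tnfrsf1b, Tnfrsf9 and Tnfrsf1a. Migratory DCs of B6 mice aged 6 to 8 weeks were sorted as live, lineage-negative CD45+ cells that were CD103+, CD11c+ and high in MHC class II, and negative for CD11b. Each tissue gave 4 libraries of polyA RNA, and each library pooled 2 mice. No group was treated, all 3 groups had the same strain and age, and no agent or allele is named in the labels. Expression is given as TPM, a gene's share of a library's transcripts scaled for gene length, which allows genes to be compared with each other. Differences between tissues are log2 differences of scaled counts with a standard error (SE), tested with edgeR's quasi-likelihood test over all 44624 genes tested. The threshold for a call was an adjusted p (Benjamini-Hochberg) below 0.05.

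TNF superfamily ligands are mostly membrane proteins that act as trimers on receptors with cysteine-rich extracellular repeats. Receptors with a death domain, such as the products of Tnfrsf1a and Fas, can start cell death, while most others bind TRAF adaptors and switch on NF-kappaB. On DCs, ligands such as CD70, OX40 ligand (Tnfsf4) and CD137 ligand (Tnfsf9) give co-stimulatory signals to T cells, and receptors on the DC itself govern its survival and maturation.

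The libraries held between 220.9 and 356.1 M estimated counts each. Whether duplicate reads were removed, or the counts rescaled before deposit, was not stated in the labels, so these totals may not be numbers of molecules. All 7 cDC1 markers averaged at least 1 TPM in every tissue, and they summed to 1410 to 1530 TPM in liver, 1170 to 1320 TPM in pancreas and 1130 to 1460 TPM in duodenum. Itgam, which encodes the excluded CD11b, averaged 0.639, 0.923 and 0.817 TPM in liver, pancreas and duodenum. RNA of other cells was present in each tissue. Hepatocyte markers summed to 20.2 to 37.7 TPM in liver, and acinar markers to 419 to 2950 TPM in pancreas. Plasma cell markers summed to 9660 to 14600 TPM in duodenum, 1430 TPM in liver 2, and 1460 and 1690 TPM in pancreas 3 and 4. T cell markers, which matter here because activated T cells express several TNF receptors, summed to 8.65 to 9.80 TPM in liver, 7.60 to 9.21 TPM in pancreas and 6.42 to 10.7 TPM in duodenum, and 0 of 10 was called in any comparison. Of those 10 T cell markers 2 averaged at least 1 TPM in each tissue, and none was at 0 in all 4 libraries of a tissue. The 2 were Cd3d and Cd5 in liver, and Cd3d and Lck in pancreas and duodenum. Cd3d made up much of the sums, with means of 5.18, 4.31 and 4.09 TPM in liver, pancreas and duodenum. Cd3e, Cd3g, Trac, Trbc1 and Trbc2 averaged at most 0.435 TPM in any tissue. In such bulk samples fewer cells of a type and less RNA per cell cannot be told apart.

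Several receptors of the 10 genes passed the test against duodenum, Tnfrsf4 and Fas higher and Tnfrsf1a lower in both liver and pancreas. In liver against duodenum, 3 of the 10 genes were called, 2 higher and 1 lower, where 7.32% of all genes tested were called, 3.37% higher and 3.95% lower. In pancreas against duodenum 5 of 10 were called, 4 higher and 1 lower, with a background of 7.70%, 3.76% higher and 3.94% lower. Between liver and pancreas 0 of 10 was called by edgeR, with a background of 1.11%, 0.426% higher and 0.681% lower in liver; at an unadjusted p under 0.05 there were 2, DESeq2 called 2 and limma on log2(TPM + 1) called 1. Each call against duodenum was of a receptor. Among the 5 ligands, edgeR called 0 in any comparison; 2 had an unadjusted p under 0.05 in liver against duodenum, 3 in pancreas against duodenum and 1 in liver against pancreas, and DESeq2 called 2, 2 and 1. Over genes with a mean of at least 1 TPM the backgrounds were higher, at 16.2%, 16.9% and 2.56% for the 3 comparisons in that order. The median log2 difference of the 10 genes was 0.34 in liver against duodenum, 0.72 in pancreas against duodenum and -0.14 in liver against pancreas, beside 0.10, 0.09 and 0.01 over all genes tested. Both comparisons against duodenum share the 4 duodenum libraries, so their calls are not independent of each other.

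The balance of all calls depended on how libraries were scaled. In liver against duodenum 46% of all calls were higher in liver, against 35.3% with DESeq2 size factors and 63.5% with library totals. For liver against pancreas the share higher in liver was 38.5%, and 52.2% with library totals. The median over all genes in liver against duodenum, 0.10 as given above, was 0.02 with DESeq2 size factors and 0.25 with library totals. The same 3 of the 10 genes were called there under each of the 3 scalings, and the 5 called in pancreas against duodenum were called under each as well.

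**Figure D1:**
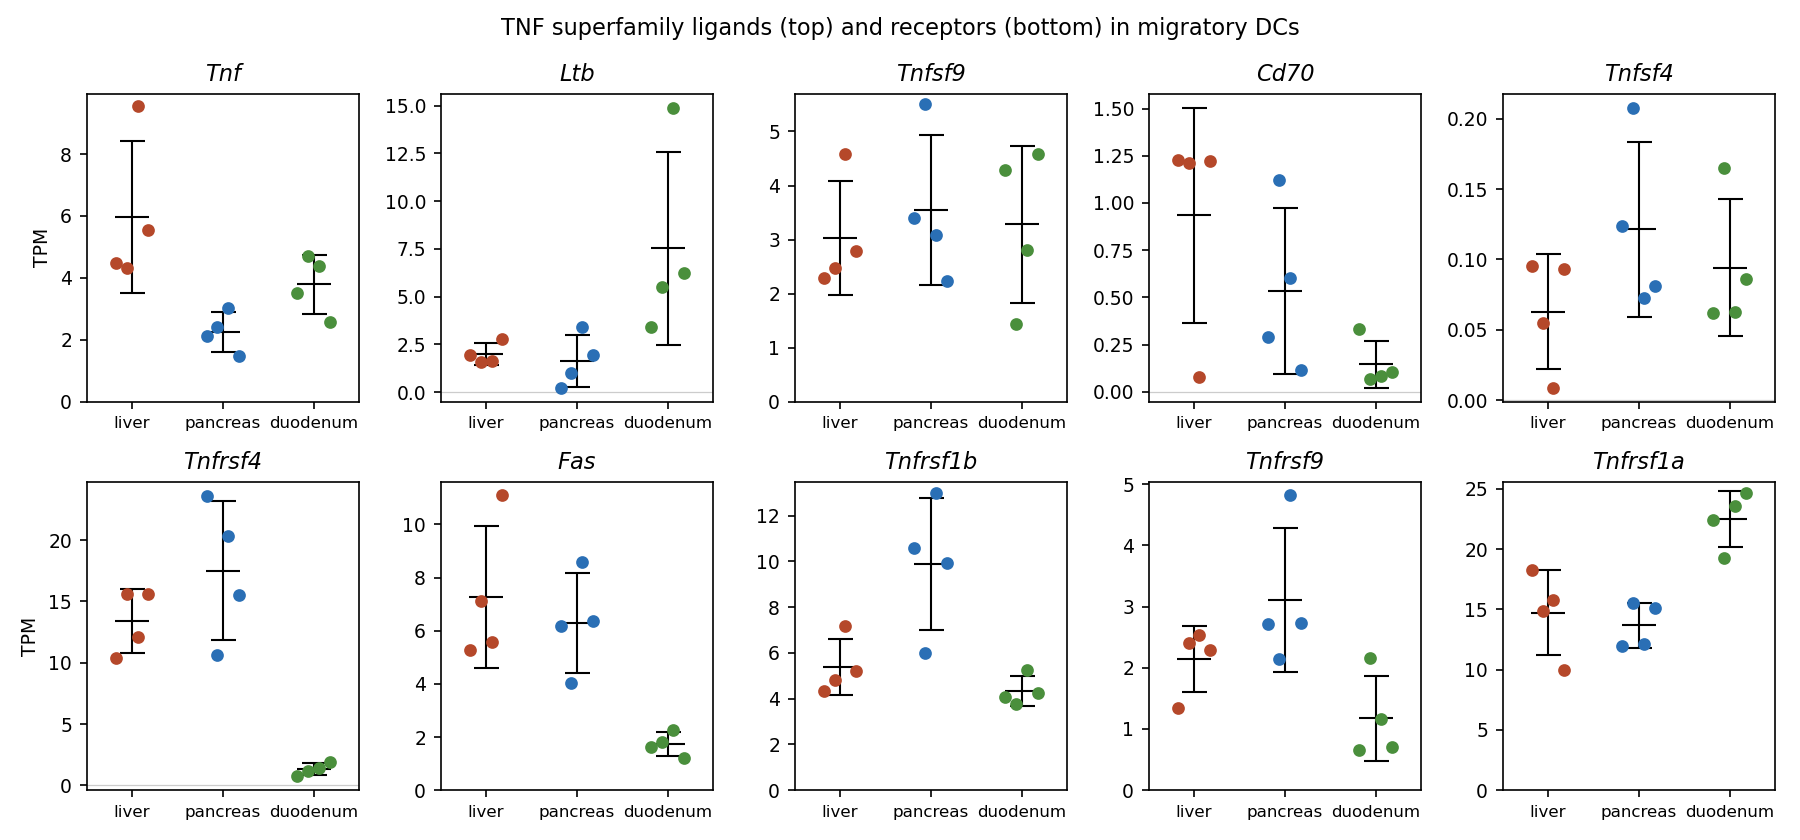
TPM of the 10 genes in each library, with ligands in the top row and receptors in the bottom row; points are libraries, bars are the mean ± SD of 4 libraries per tissue. For Tnfrsf4 and Fas every liver and pancreas point lies above every duodenum point, and for Tnfrsf1a and Ltb below.

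Tnfrsf4, which encodes OX40, a co-stimulatory receptor best known on activated T cells, differed most. Its levels were 10.4, 15.6, 12.1 and 15.6 TPM in the 4 liver libraries, 23.6, 10.6, 20.3 and 15.5 TPM in pancreas, and 0.758, 1.17, 1.46 and 1.90 TPM in duodenum. The lowest library of liver or pancreas stood well above the highest of duodenum, while liver and pancreas overlapped. In liver it was 9.01-fold higher than in duodenum (log2 difference 3.17 ± 0.31 SE, adjusted p = 2.41e-05, edgeR). In pancreas it was 12.5-fold higher than in duodenum (3.64 ± 0.32, adjusted p = 5.1e-06, edgeR). Liver and pancreas differed by -0.47 ± 0.29, which did not pass (adjusted p = 0.747, edgeR). Both calls against duodenum held in all 24 alternatives.

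Fas encodes a death receptor that recruits FADD and caspase-8. It stood at 5.29, 7.13, 5.59 and 11.1 TPM in liver, at 6.16, 4.03, 8.60 and 6.38 TPM in pancreas, and at 1.61, 1.83, 2.27 and 1.20 TPM in duodenum. Again no duodenum library reached the lowest of the other tissues, and liver and pancreas overlapped, with liver 4 the highest of all. The log2 difference was 1.91 ± 0.30 in liver against duodenum (3.76-fold, adjusted p = 0.00111, edgeR) and 1.81 ± 0.30 in pancreas against duodenum (3.51-fold, adjusted p = 0.00142, edgeR). These calls also held in all 24 alternatives. Between liver and pancreas the difference was 0.10 ± 0.29 (adjusted p = 0.986, edgeR).

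RefSeq promoters were at hand for 7 of the 10 genes, 8 start sites in all, on build GRCm38.p6, which is not the GRCm39 build named for the deposited files. The 250 bases before the start are shown for Tnfrsf4 and Fas, which were called higher in both liver and pancreas, and for Tnfrsf9 and Ltb, whose windows held a match to the NF-kappaB consensus. The Tnfrsf4 window is chr4:156013445-156013694 (+ strand) and that of Fas is chr19:34290409-34290658 (+ strand). Tnfrsf9 is shown for the downstream of its 2 starts, chr4:150927749-150927998 (+ strand), and Ltb for chr17:35194257-35194506 (+ strand). Capitals mark matches to the NF-kappaB consensus or to TGANTCA, an AP-1 motif, searched on both strands.
Tnfrsf4: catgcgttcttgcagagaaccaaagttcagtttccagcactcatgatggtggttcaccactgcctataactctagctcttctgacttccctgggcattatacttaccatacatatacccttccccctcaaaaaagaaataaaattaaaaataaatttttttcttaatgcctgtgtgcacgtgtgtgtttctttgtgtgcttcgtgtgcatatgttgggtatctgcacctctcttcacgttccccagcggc
Fas: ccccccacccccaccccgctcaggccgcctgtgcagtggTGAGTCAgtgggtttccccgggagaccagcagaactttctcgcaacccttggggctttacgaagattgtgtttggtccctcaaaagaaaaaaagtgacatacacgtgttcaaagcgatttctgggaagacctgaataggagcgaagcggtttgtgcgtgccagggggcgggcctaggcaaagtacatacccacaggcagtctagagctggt
Tnfrsf9: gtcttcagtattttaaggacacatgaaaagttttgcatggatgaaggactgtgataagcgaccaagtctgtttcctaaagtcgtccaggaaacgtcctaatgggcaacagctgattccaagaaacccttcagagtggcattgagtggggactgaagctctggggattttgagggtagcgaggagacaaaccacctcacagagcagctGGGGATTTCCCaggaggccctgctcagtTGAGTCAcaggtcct
Ltb: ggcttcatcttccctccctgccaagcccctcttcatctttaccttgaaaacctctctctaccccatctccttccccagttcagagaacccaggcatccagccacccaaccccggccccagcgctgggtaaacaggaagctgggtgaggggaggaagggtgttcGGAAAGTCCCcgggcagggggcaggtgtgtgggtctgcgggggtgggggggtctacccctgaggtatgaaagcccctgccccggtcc
Tnfrsf9 held 2 overlapping NF-kappaB matches that begin 43 and 42 bases before the start and 1 TGANTCA match that begins 15 bases before it. Ltb held 1 NF-kappaB match at 87 bases, and Fas held 1 TGANTCA match at 211 bases. No NF-kappaB match overlapped a TGANTCA match. The other windows, those of Tnfrsf4, Tnf, Tnfrsf1a and Tnfrsf1b and the other Tnfrsf9 start, held neither. So 2 of 8 windows held an NF-kappaB match and 2 of 8 a TGANTCA match, where 7.25% and 6.75% of all 32851 promoter windows did.

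The receptors for TNF itself moved in opposite directions in pancreas against duodenum. Tnfrsf1a encodes TNFR1, the widely expressed receptor with a death domain, and was the most abundant of the 10 genes in duodenum. Its levels were 18.3, 14.9, 15.8 and 9.96 TPM in liver, 12, 15.5, 12.1 and 15.1 TPM in pancreas, and 22.4, 19.3, 23.6 and 24.7 TPM in duodenum. Every duodenum library lay above every library of liver and pancreas, which overlapped each other. The log2 difference was -0.78 ± 0.19 in liver against duodenum (adjusted p = 0.0247, edgeR) and -0.79 ± 0.19 in pancreas against duodenum (adjusted p = 0.0202, edgeR). The liver call ended when liver 2 or duodenum 1, 3 or 4 was left out (adjusted p = 0.0511, 0.0582, 0.0650 and 0.0630), and the pancreas call when duodenum 1, 3 or 4 or pancreas 1 was (adjusted p = 0.0502, 0.0552, 0.0542 and 0.0546), with values from -0.82 to -0.74. Both also ended without liver 2, pancreas 3 and pancreas 4 together, the libraries of those tissues with the most plasma cell marker RNA (adjusted p = 0.0943 and 0.134). Liver and pancreas differed by 0.02 ± 0.19 (adjusted p = 0.999, edgeR).

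Tnfrsf1b encodes TNFR2, a receptor without a death domain that binds TRAF2 and is used by leukocytes. It was at 4.35, 4.80, 7.16 and 5.22 TPM in liver, 10.6, 6.01, 13.0 and 9.94 TPM in pancreas, and 4.05, 3.76, 5.25 and 4.24 TPM in duodenum. Pancreas did not overlap duodenum, while liver overlapped both. It was higher in pancreas than in duodenum by 1.13 ± 0.25 (2.19-fold, adjusted p = 0.0114, edgeR), but without pancreas 3 by 0.86 (adjusted p = 0.0505), and without liver 2, pancreas 3 and pancreas 4 by 0.75 (adjusted p = 0.231), so the call ended in both. It also ended without duodenum 2 and pancreas 1 together (0.98, adjusted p = 0.0605). In liver against duodenum the difference was 0.16 ± 0.25 (adjusted p = 0.821). Liver was at -0.97 ± 0.25 against pancreas, which did not pass (adjusted p = 0.101, edgeR) but passed in 5 of 24 alternatives, DESeq2 among them (adjusted p = 0.0187). The level of Tnfrsf1b relative to Tnfrsf1a within a library, a measure free of library scaling, had means of -1.43 ± 0.50 in liver, -0.51 ± 0.63 in pancreas and -2.36 ± 0.16 in duodenum (log2 ratio of TPM + 0.1, SD, n = 4 each). On that scale each liver and pancreas library was above all 4 of duodenum, whose highest was -2.15.

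Tnfrsf9 encodes CD137, an inducible co-stimulatory receptor. The libraries held 1.34, 2.41, 2.53 and 2.29 TPM in liver, 2.72, 2.14, 4.82 and 2.73 TPM in pancreas, and 0.651, 2.16, 1.17 and 0.710 TPM in duodenum. Duodenum 2 overlapped the other tissues and the remaining 3 duodenum libraries lay below them. Pancreas was higher than duodenum by 1.39 ± 0.38 (2.62-fold, adjusted p = 0.0373, edgeR). The call ended when any of 8 single libraries was left out (liver 2 or 4, duodenum 1, 3 or 4, pancreas 1, 3 or 4), with adjusted p from 0.0508 to 0.127 and a log2 difference of 0.99 without pancreas 3. It also ended without liver 2, pancreas 3 and pancreas 4 together (0.91, adjusted p = 0.347), and in a fit of the 8 libraries of the 2 tissues alone (1.39, adjusted p = 0.0560). Liver against duodenum was at 0.74 ± 0.38 (adjusted p = 0.309) and liver against pancreas at -0.64 ± 0.37 (adjusted p = 0.717).

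**Figure D2:**
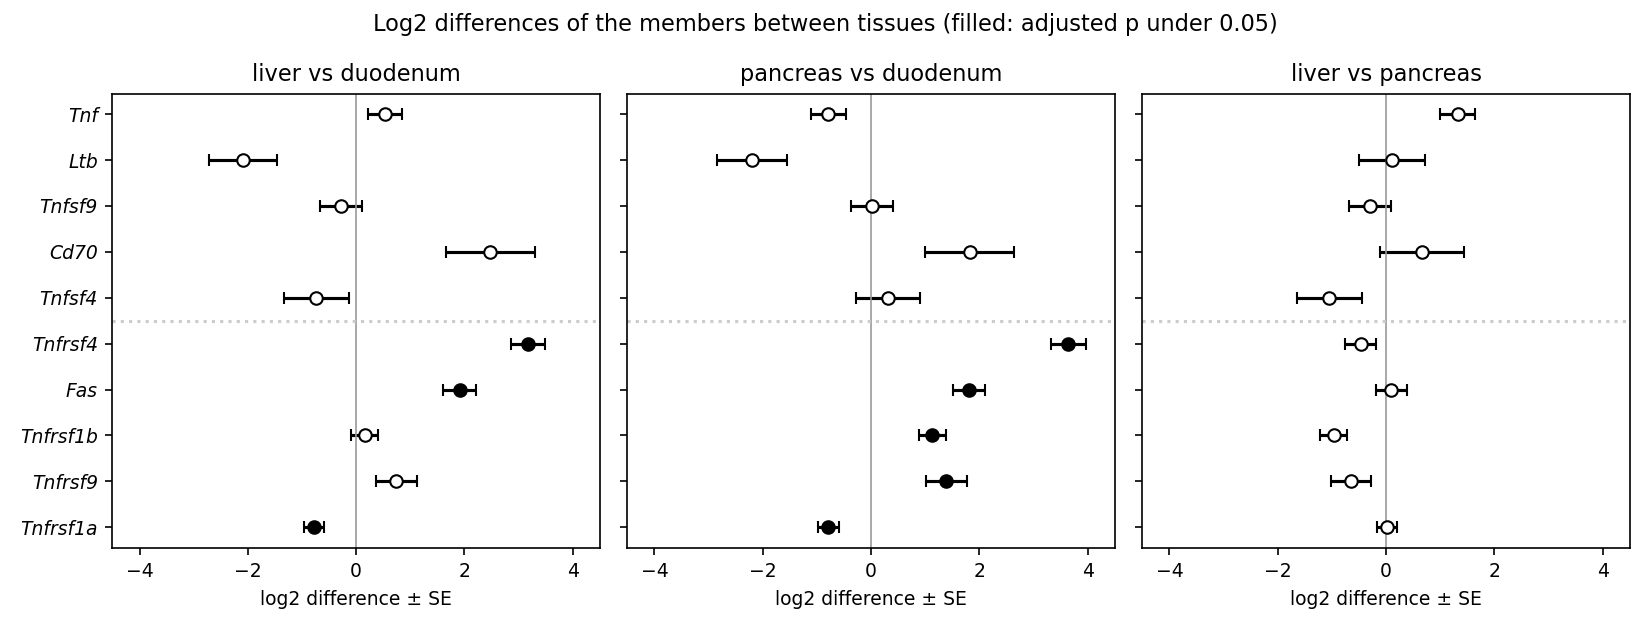
Log2 differences (points, ± SE) of the 10 genes in the 3 comparisons, with ligands above the dotted line and receptors below it; filled points had an adjusted p under 0.05. Filled points are found among receptors and in the 2 comparisons against duodenum, with Tnfrsf4 at 3.17 and 3.64.

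Among the ligands, Tnf was at 4.47, 4.33, 9.55 and 5.53 TPM in liver, 2.12, 2.40, 3.04 and 1.46 TPM in pancreas, and 3.52, 4.71, 4.38 and 2.58 TPM in duodenum. It encodes the inflammatory cytokine TNF, which DCs make on activation. The order of the means was liver, duodenum, pancreas. Liver did not overlap pancreas, and duodenum overlapped both. The log2 difference was 1.32 ± 0.32 in liver against pancreas, 0.53 ± 0.31 in liver against duodenum and -0.79 ± 0.32 in pancreas against duodenum, and none passed (adjusted p = 0.0724, 0.420 and 0.170, edgeR). The first passed in 7 of 24 alternatives, such as library totals (adjusted p = 0.0226), DESeq2 (0.00307) and leaving out pancreas 3 (0.0492). The pancreas against duodenum difference passed in 2 of 24, DESeq2 (adjusted p = 0.0493) among them. Within libraries, the log2 ratio of Tnf to Tnfrsf1b ran from -0.15 to 0.41 in liver, from -2.69 to -1.29 in pancreas and from -0.70 to 0.32 in duodenum. All 4 pancreas libraries were therefore below every other library in this ratio.

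Ltb encodes lymphotoxin beta, which forms a membrane complex with lymphotoxin alpha and binds the receptor encoded by Ltbr. Its levels were 1.97, 1.56, 1.65 and 2.79 TPM in liver, 0.240, 1.02, 3.39 and 1.96 TPM in pancreas, and 3.44, 5.49, 14.9 and 6.26 TPM in duodenum. All duodenum libraries were higher than all others, duodenum 3 by far. The log2 difference was -2.09 ± 0.63 in liver against duodenum (adjusted p = 0.0638, edgeR) and -2.20 ± 0.64 in pancreas against duodenum (adjusted p = 0.0503, edgeR), so neither passed. They passed in 8 and 13 of 24 alternatives, with DESeq2 at adjusted p = 0.0189 and 0.0135. B cell markers, whose cells express Ltb, summed to 4.30 to 6.80 TPM in liver, 5.11 to 10.3 TPM in pancreas and 11.2 to 17.8 TPM in duodenum. Of the 7 B cell markers 1 was called, Cd79b, lower in liver than in duodenum, and 1, 2 and 3 averaged at least 1 TPM in liver, pancreas and duodenum. No B cell marker was at 0 in all 4 libraries of a tissue. The part of such cells in the Ltb values was not tested.

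Of the co-stimulatory ligands, Cd70 and Tnfsf4 averaged under 1 TPM in each tissue. Tnfsf9 averaged 3.03, 3.55 and 3.28 TPM in liver, pancreas and duodenum. Tnfsf9 was at 2.29, 2.47, 4.59 and 2.78 TPM in liver, 3.39, 5.50, 3.08 and 2.24 TPM in pancreas, and 4.29, 1.44, 2.81 and 4.59 TPM in duodenum. The 3 ranges overlapped throughout, and the log2 differences were -0.28 ± 0.39 in liver and 0.02 ± 0.39 in pancreas against duodenum (adjusted p = 0.801 and 0.988, edgeR). Liver against pancreas was at -0.30 ± 0.39 (adjusted p = 0.953, edgeR). Cd70, a ligand for CD27, was at 1.23, 1.21, 0.0771 and 1.22 TPM in liver, 0.289, 1.12, 0.602 and 0.117 TPM in pancreas, and 0.331, 0.0655, 0.0814 and 0.106 TPM in duodenum. Liver 3 stood with the duodenum libraries, and the other 3 liver libraries above all of pancreas and duodenum. In liver against duodenum Cd70 was at 2.48 ± 0.83, which did not pass (adjusted p = 0.0946, edgeR), but passed in 2 of 23 alternatives. These were DESeq2 with all libraries (2.37, adjusted p = 0.0162) and the fit without liver 3 (2.81, adjusted p = 0.0341). Pancreas against duodenum was at 1.82 ± 0.82 (adjusted p = 0.240), and liver against pancreas at 0.66 ± 0.78 (adjusted p = 0.939).

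Tnfsf4, which encodes the OX40 ligand, was barely detected. It ranged from 0.00885 to 0.0951 TPM in liver, from 0.0725 to 0.208 TPM in pancreas and from 0.0622 to 0.165 TPM in duodenum, on 4 to 106 estimated counts per library. Its log2 differences were -0.74 ± 0.60 in liver and 0.31 ± 0.59 in pancreas against duodenum, and -1.05 ± 0.60 in liver against pancreas (adjusted p = 0.594, 0.866 and 0.709, edgeR). Receptor and ligand of this pair thus stood far apart in level. The log2 ratio of Tnfsf4 to Tnfrsf4 ran from -6.81 to -5.75 in liver, from -6.88 to -5.12 in pancreas and from -3.42 to -2.26 in duodenum. With a ligand this low the ratio depends on the 0.1 TPM added, and with 1 TPM added its means were -3.74, -3.99 and -1.06 in liver, pancreas and duodenum. For CD137 and its ligand, the log2 ratios of Tnfsf9 to Tnfrsf9 ran from 0.03 to 0.84 in liver, from -0.63 to 1.32 in pancreas and from -0.56 to 2.55 in duodenum. These ranges overlapped, and 3 of the 4 duodenum libraries were above 1.

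**Figure D3:**
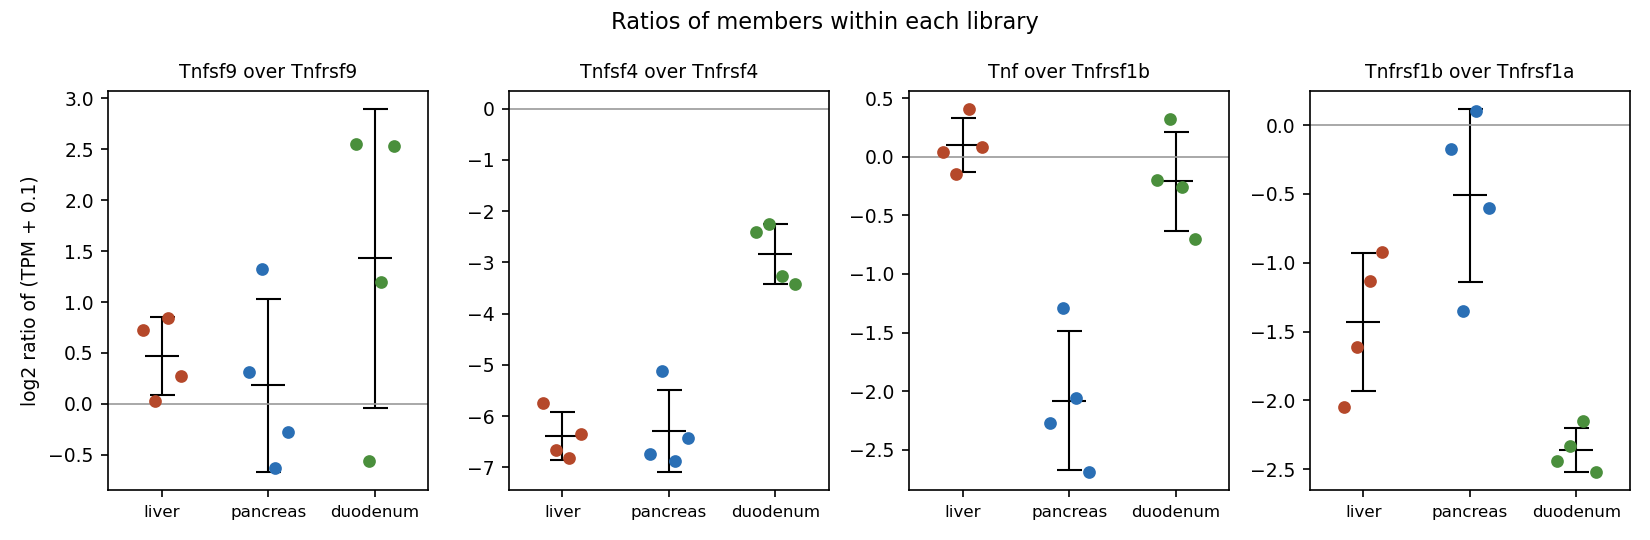
Log2 ratios of TPM + 0.1 for 4 pairs of the genes within each library; points are libraries, bars the mean ± SD of 4 libraries per tissue. Tnfsf4 over Tnfrsf4 is near -6 in liver and pancreas and above -3.5 in duodenum, and Tnf over Tnfrsf1b is lowest in pancreas.

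Counted without the model, 4 of the 10 genes had TPM values that did not overlap between liver and duodenum (Tnfrsf4 and Fas higher, Tnfrsf1a and Ltb lower), where 15.6% of all genes tested did not. For pancreas and duodenum there were 5 (Tnfrsf1b in addition, higher), against 13.6%. Between liver and pancreas it was Tnf alone, higher in liver, against 7.33%. Within pancreas the libraries were uneven. Pancreas 2 had the lowest level of the 4 for each receptor called higher in pancreas, at 10.6 TPM for Tnfrsf4, 4.03 for Fas, 6.01 for Tnfrsf1b and 2.14 for Tnfrsf9. It had the highest for Tnfsf9, Cd70, Tnfsf4 and Tnfrsf1a. The same library had the lowest sum of acinar markers, 419 TPM, beside 1320 to 2950 TPM in the others, and its part in these values was not tested. This contrast was picked after the values were seen.

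Within the whole family the 10 genes ranged widely in level. Of 28 receptor genes 20 averaged at least 1 TPM in liver, 18 in pancreas and 21 in duodenum, and of 18 ligand genes 4 did in each tissue. Tnfrsf4 ranked 6 of 28 receptors in liver, 5 in pancreas and 20 in duodenum by mean TPM, whereas Tnfrsf1a ranked 5, 7 and 2. Fas ranked 10, 14 and 17, Tnfrsf1b 15, 10 and 12, and Tnfrsf9 18, 17 and 21. Of the 18 ligands in the same tissues, Tnf ranked 2, 3 and 3, Tnfsf9 3, 2 and 4, Ltb 4, 4 and 1, Cd70 5, 7 and 12, and Tnfsf4 16, 14 and 14. The most abundant receptor was Cd40 in liver (51.4 TPM), Tnfrsf13b in pancreas (26.7 TPM) and Tnfrsf14 in duodenum (28.1 TPM). Among ligands Tnfsf13b, which encodes the B cell survival factor BAFF, led in liver and pancreas (10.3 and 10.7 TPM), and Ltb led in duodenum (7.52 TPM) ahead of Tnfsf13b (7.01 TPM).

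**Figure D4:**
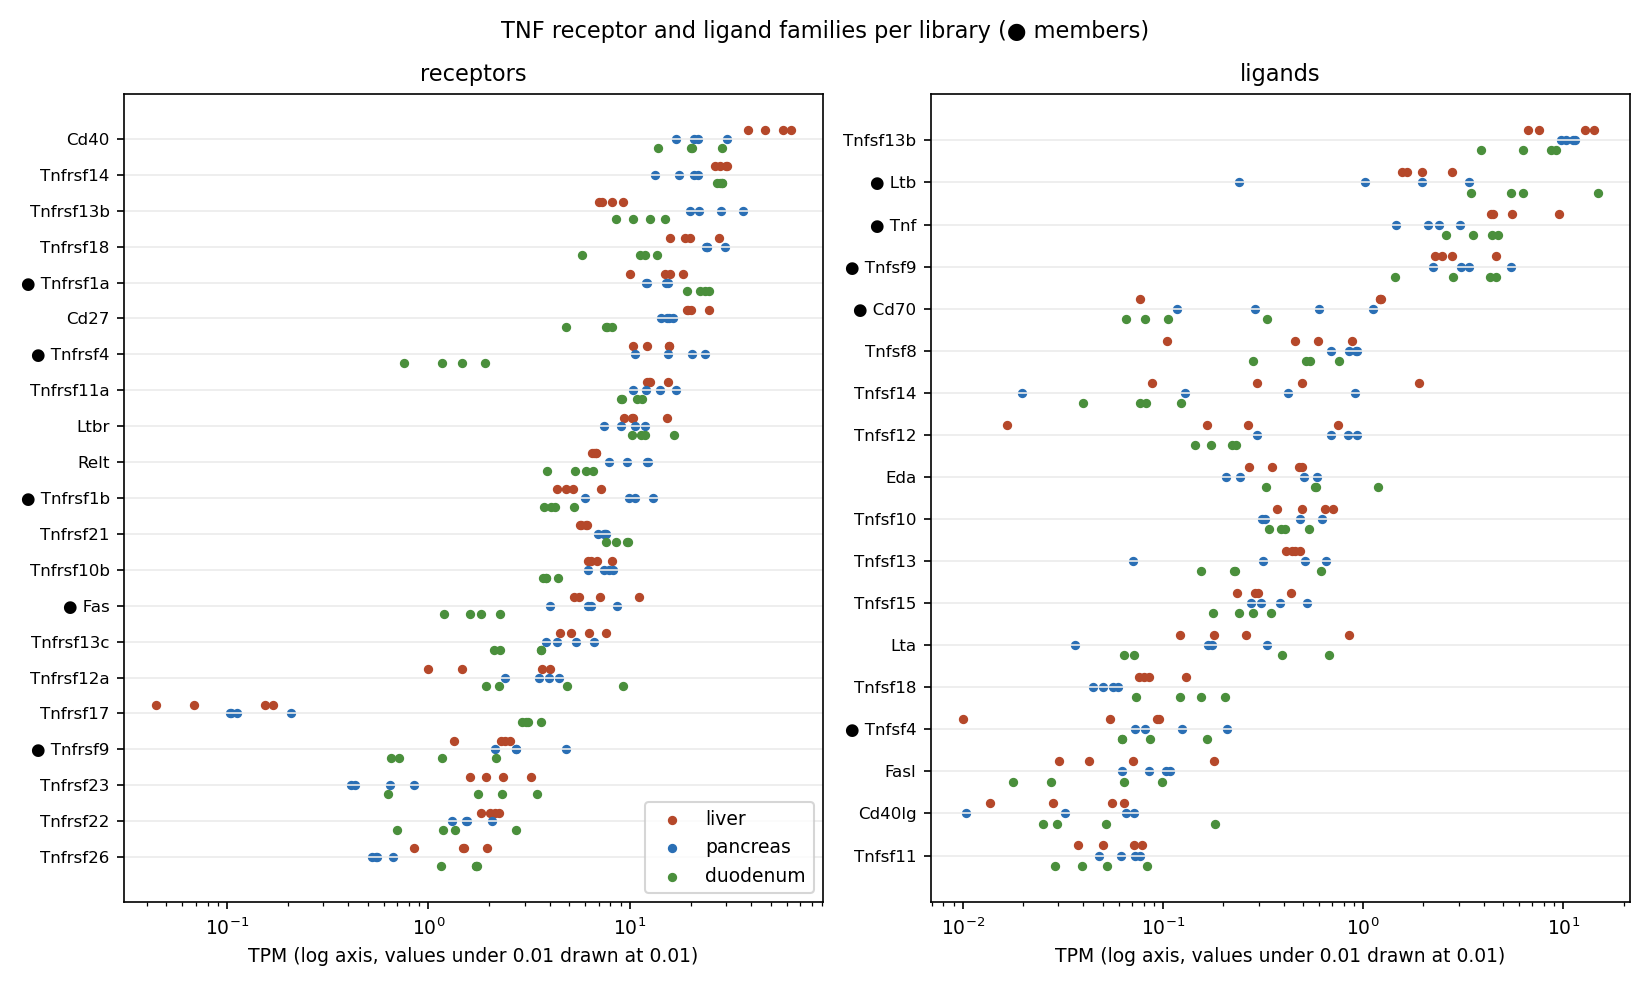
TPM on a log axis of the receptor genes that averaged at least 1 TPM in a tissue (left) and of all 18 ligand genes (right); each point is a library, coloured by tissue, and filled circles beside names mark the 10 genes. Among receptors the duodenum points of Tnfrsf4 and Fas sit to the left of the other tissues, and most ligands lie under 1 TPM.

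Of the other 23 receptor genes, 4 were higher and 2 lower in liver than in duodenum, and 5 were higher and 4 lower in pancreas than in duodenum. Medians of the log2 differences were -0.04 and 0.04. Of all genes tested 7.32% and 7.70% were called in these comparisons, and 16.2% and 16.9% of those with a mean of at least 1 TPM. Cd27, the receptor for CD70, rose in both, by 1.39 ± 0.20 in liver and 1.04 ± 0.20 in pancreas against duodenum (adjusted p = 0.000565 and 0.00419, edgeR). It averaged 20.9 ± 2.64 TPM in liver, 15.3 ± 0.882 TPM in pancreas and 7.06 ± 1.5 TPM in duodenum (SD, n = 4 each), far above its ligand Cd70 in each. Cd40, the receptor through which helper T cells license DCs, was higher in liver than in duodenum by 1.15 ± 0.26 (adjusted p = 0.0156), at 51.4 ± 11 and 20.7 ± 6.09 TPM, a call that ended without liver 2, liver 3 or duodenum 4. In pancreas Cd40 was at 22.4 ± 5.66 TPM, 0.05 ± 0.26 against duodenum (adjusted p = 0.963, edgeR). Liver against pancreas was at 1.10 ± 0.26, which did not pass (adjusted p = 0.0704, edgeR). Tnfrsf18, which encodes GITR, was higher in pancreas than in duodenum by 1.19 ± 0.26 (adjusted p = 0.0112), and this call ended without pancreas 3.

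Receptors for BAFF and APRIL also differed. Tnfrsf13b, which encodes TACI, averaged 7.93 ± 1.03 TPM in liver, 26.7 ± 7.55 TPM in pancreas and 11.6 ± 2.80 TPM in duodenum (SD, n = 4 each). It was higher in pancreas than in duodenum (1.13 ± 0.24, adjusted p = 0.00808, edgeR) and lower in liver than in pancreas (-1.86 ± 0.24, adjusted p = 0.000871, edgeR). Tnfrsf13c, the BAFF receptor, was higher in liver than in duodenum by 0.88 ± 0.23 (adjusted p = 0.0348), a call that ended without any of 7 single libraries (liver 1, 3 or 4, duodenum 3 or 4, pancreas 3 or 4). This call also ended with DESeq2 size factors in edgeR, with a replicate block and in a fit of only the 8 libraries compared. Tnfrsf17, which encodes the plasma cell receptor BCMA, was at lower levels in liver and pancreas, by -5.03 ± 0.42 and -4.67 ± 0.41 against duodenum (adjusted p = 5.35e-06 and 5.34e-06, edgeR). Beside it, the 7 plasma cell markers, Tnfrsf17 included, summed to 94.3 to 1430 TPM in liver, 97.3 to 1690 TPM in pancreas and 9660 to 14600 TPM in duodenum, and 4 of 7 were called lower against duodenum in each. All 7 averaged at least 1 TPM in duodenum and 4 did in each other tissue, none was at 0 in all libraries of a tissue, and their part in the Tnfrsf17 values was not tested.

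Tnfrsf21, a death-domain receptor, was lower in liver than in duodenum (-0.77 ± 0.14, adjusted p = 0.00329, edgeR). The receptor genes Tnfrsf23 and Tnfrsf26 were lower in pancreas than in duodenum by -1.92 ± 0.43 and -1.54 ± 0.25 (adjusted p = 0.0123 and 0.00111, edgeR). Tnfrsf26 was also the only other receptor gene called higher in liver than in pancreas (1.22 ± 0.24, adjusted p = 0.0237), but not once any of 6 libraries was dropped (liver 1, 2 or 4, pancreas 1, 3 or 4). These genes belong to a cluster of related copies that also holds Tnfrsf22, so the split of reads among them is uncertain. Among the other 13 ligand genes, Tnfsf18 alone was called, at a lower level in pancreas than duodenum (-1.46 ± 0.41, adjusted p = 0.0421), at means of 0.0928 TPM in liver, 0.0526 TPM in pancreas and 0.138 TPM in duodenum, and it is named outside the rule, after its values were seen. For these ligands edgeR called 0 in liver against duodenum and 0 in liver against pancreas. There, 2 and 0 had an unadjusted p under 0.05 and DESeq2 called 1 and 0. Over all genes tested, edgeR called 7.32% in liver against duodenum, 7.70% in pancreas against duodenum and 1.11% in liver against pancreas.

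Downstream of the receptors, 3 of 31 adaptor and death-signalling genes were higher and 0 lower in liver, and 4 were higher and 1 lower in pancreas, than in duodenum. Over all genes tested, 7.32% and 7.70% were called in these comparisons, and 16.2% and 16.9% of those with a mean of at least 1 TPM. Their medians were -0.02 and -0.10. Traf1, an adaptor of TNFR2 and CD137 that NF-kappaB induces, was higher in liver by 1.35 ± 0.23 and in pancreas by 1.27 ± 0.23 (adjusted p = 0.00225 and 0.00305, edgeR), at 98.2 ± 20.9 TPM in liver, 86.5 ± 19.4 TPM in pancreas and 34.5 ± 8.42 TPM in duodenum (SD, n = 4 each). Cflar, which encodes the caspase-8 inhibitor FLIP, was higher in liver than in duodenum (0.60 ± 0.13, adjusted p = 0.00889). Birc2, a ubiquitin ligase of the TNFR complex, was higher in liver (0.76 ± 0.16, adjusted p = 0.00907) until liver 2 was left out, and in pancreas (0.56 ± 0.16, adjusted p = 0.0443) until any of 11 single libraries, all but liver 1, was. Map3k14, the NF-kappaB-inducing kinase of the non-canonical pathway, was higher in pancreas than in duodenum by 1.08 ± 0.23 (adjusted p = 0.00859). Chuk, an IkappaB kinase gene, was lower there by -0.77 ± 0.16 (adjusted p = 0.00694). Ikbkb, the other catalytic IkappaB kinase gene, averaged 41.9 TPM in liver, 58.3 TPM in pancreas and 39.7 TPM in duodenum. It was higher in pancreas than in duodenum (0.49 ± 0.13, adjusted p = 0.0257, edgeR), and liver against duodenum was not called (-0.08 ± 0.13, adjusted p = 0.825, edgeR). It was lower in liver than in pancreas (-0.57 ± 0.13, adjusted p = 0.0424), a call that ended without any of 11 single libraries, all but duodenum 2.

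Of 11 genes of TNF shedding and TNF mRNA decay, 1 was higher and 1 lower in liver, and 2 were higher and 1 lower in pancreas, than in duodenum. For comparison, 7.32% and 7.70% of all genes tested were called, and 16.2% and 16.9% of those with a mean of at least 1 TPM. Zfp36, which encodes tristetraprolin, a protein that destabilises Tnf mRNA, was at 13.4 ± 0.573 TPM in liver, 21.7 ± 3.92 TPM in pancreas and 81.7 ± 4.2 TPM in duodenum (SD, n = 4 each). Its log2 difference was -2.77 ± 0.15 in liver and -1.98 ± 0.15 in pancreas against duodenum (adjusted p = 1.26e-07 and 1.11e-06, edgeR). It was also lower in liver than in pancreas (-0.79 ± 0.14, adjusted p = 0.0124), until liver 1 or liver 2 was left out. The related Zfp36l2 was higher in pancreas than in duodenum (1.17 ± 0.22, adjusted p = 0.00329). Furin, a proprotein convertase that activates the TNF-cleaving protease ADAM17, was higher in liver (0.64 ± 0.14, adjusted p = 0.0129) until liver 3 was left out, and in pancreas (0.86 ± 0.14, adjusted p = 0.00161). The Furin call in liver also ended with DESeq2 size factors in edgeR.

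Among 20 genes that NF-kappaB induces, 2 were higher and 7 lower in liver, and 2 higher and 7 lower in pancreas, than in duodenum, with medians of -0.46 and -0.48. The shares called over all genes tested were 7.32% and 7.70%, and 16.2% and 16.9% over those with a mean of at least 1 TPM. Gadd45b, a stress sensor, and Relb, the NF-kappaB subunit of DC maturation, were the 2 higher ones. Gadd45b differed by 1.75 ± 0.30 in liver and 2.11 ± 0.30 in pancreas (adjusted p = 0.00201 and 0.000418, edgeR). Relb differed by 0.88 ± 0.25 and 1.10 ± 0.25 (adjusted p = 0.0452 and 0.0134), a call that ended without any of 9 single libraries in liver (all but duodenum 3, pancreas 2 and pancreas 3) and without pancreas 3 in pancreas. In liver the Relb call also ended with DESeq2 size factors in edgeR and without a filter on low counts. Cxcl2, a neutrophil chemokine gene, was at 0.110 ± 0.0659 TPM in liver, 0.225 ± 0.222 TPM in pancreas and 5.22 ± 0.820 TPM in duodenum (SD, n = 4 each), and differed by -5.73 ± 0.74 and -4.63 ± 0.70 against duodenum (adjusted p = 0.000230 and 0.000705, edgeR). Ptgs2, which encodes the cyclooxygenase COX2, was lower in liver by -4.33 ± 0.61 (adjusted p = 0.000452) and Ccl2, a monocyte chemokine gene, by -2.51 ± 0.69 (adjusted p = 0.0405). The Ccl2 call in liver ended without any of 8 single libraries (liver 1, 2 or 4, duodenum 1, 3 or 4, pancreas 2 or 3). That call also ended with library totals, without a filter on low counts and in a fit of only the 8 libraries compared. Ptgs2 and Ccl2 were also called lower in pancreas than in duodenum (-2.68 ± 0.56 and -2.64 ± 0.69, adjusted p = 0.0078 and 0.0308, edgeR). Tnfaip2 and Cxcl10 were lower in pancreas than in duodenum by -2.98 ± 0.34 and -2.91 ± 0.52 (adjusted p = 6.06e-05 and 0.00244). In liver against duodenum Tnfaip2 was also called lower (-2.05 ± 0.33, adjusted p = 0.00133, edgeR), and Cxcl10 did not pass (-1.64 ± 0.49, adjusted p = 0.06, edgeR). Between liver and pancreas edgeR called 0 of the 20; 5 had an unadjusted p under 0.05 and DESeq2 called 1. Monocyte and neutrophil markers, 6 of 7 of which were found, summed to 18.4 to 25.9 TPM in liver, 5.46 to 25.2 TPM in pancreas and 15.7 to 52.5 TPM in duodenum, with none at 0 in all libraries of a tissue and 1, 2 and 4 averaging at least 1 TPM in liver, pancreas and duodenum. Of those 6, 0 was called in liver and 1, lower, in pancreas against duodenum. Ly6c2 was the highest of them in each tissue, at 22.0, 6.53 and 31.5 TPM in liver, pancreas and duodenum. Within duodenum, S100a8, S100a9 and Retnlg peaked in duodenum 2, at 4.92, 6.14 and 4.37 TPM. The other duodenum libraries held 0.107 to 0.626, 0.103 to 1.48 and 0.0764 to 0.259 TPM of these. S100a8 was at 8.57 TPM in pancreas 4 and at 0.292 to 0.453 TPM in the other pancreas libraries. The 5 cDC2 markers summed to 2.64 to 6.45 TPM in liver, 4.09 to 9.08 TPM in pancreas and 26.8 to 42.4 TPM in duodenum, and 4 of 5 were called lower in each. The part of either list in these values was not tested.

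**Figure D5:**
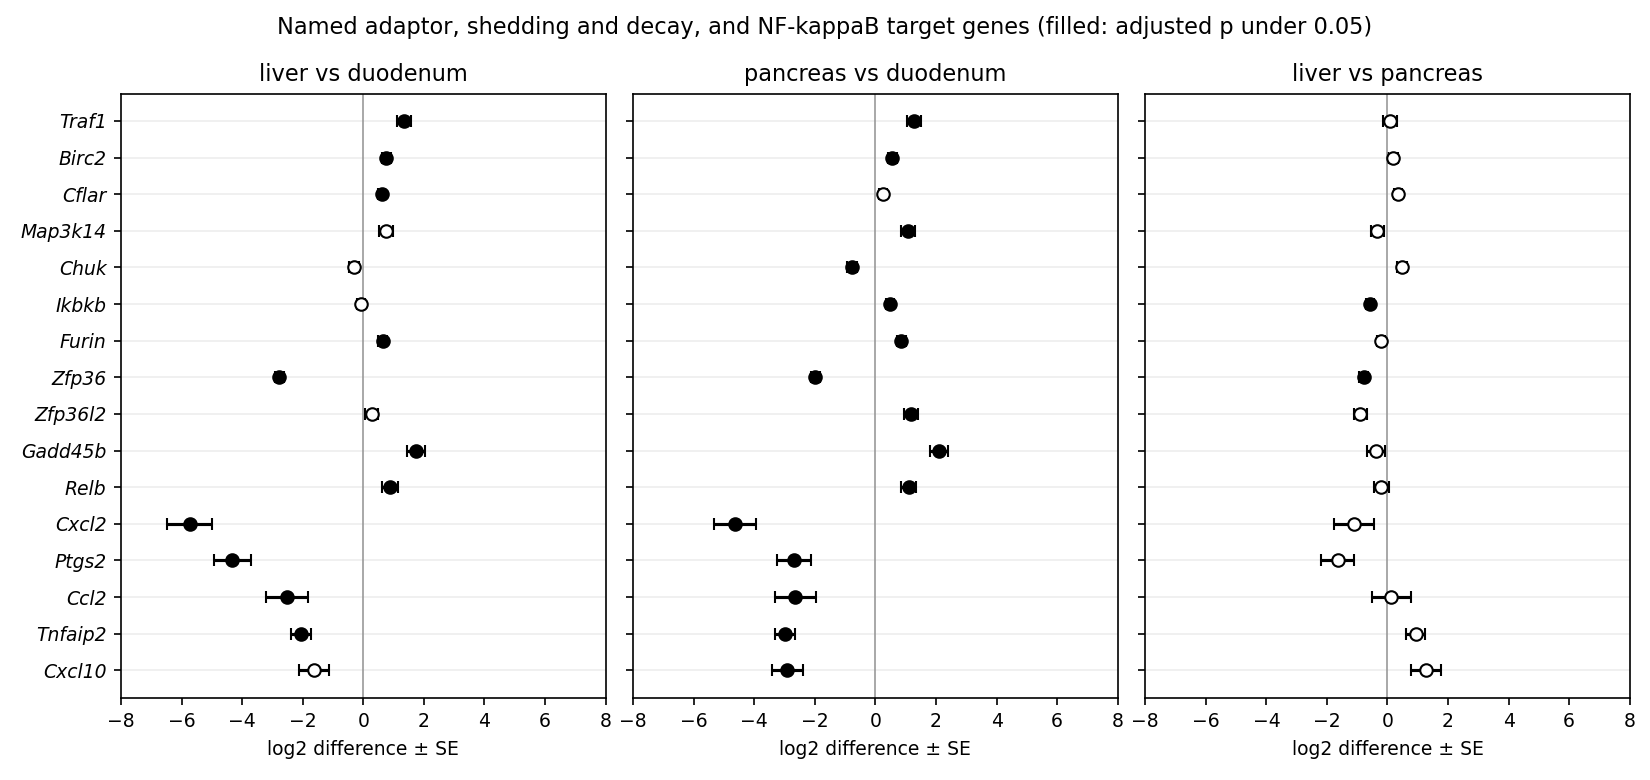
Log2 differences (points, ± SE) of the named adaptor, shedding, decay and NF-kappaB target genes in the 3 comparisons; filled points had an adjusted p under 0.05. Traf1, Furin, Gadd45b and Relb are filled and to the right of 0 in both comparisons against duodenum, and Zfp36, Cxcl2, Ptgs2, Ccl2 and Tnfaip2 are filled and to the left.

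For the 5 genes called in a comparison, the most similar profiles over the 12 libraries were taken from 7768 genes with a mean of at least 5 TPM, by the root mean square difference of centred log2 CPM. Tnfrsf4 was nearest to Cacnb3, a calcium channel subunit gene, and Gcsam (differences of 0.46 and 0.51, beside a spread of 1.68 of Tnfrsf4 itself). Gcsam averaged 110 ± 8.51 TPM in liver, 105 ± 2.83 TPM in pancreas and 8.60 ± 1.77 TPM in duodenum (SD, n = 4 each). Fas was nearest to Gadd45b and Marcksl1 (0.28 and 0.29, beside 0.95). Marcksl1 encodes a MARCKS-like protein of the actin cytoskeleton. Tnfrsf9 was nearest to Pvr, a nectin-like receptor gene, and Laptm4b (0.28 and 0.39, beside 0.78). Tnfrsf1b was nearest to Dgat2, an enzyme gene of triglyceride synthesis, and the kinase gene Map4k4 (0.26 each, beside 0.59). Tnfrsf1a was nearest to Slc35b1, a transporter gene of the endoplasmic reticulum, and Spcs3, a signal peptidase subunit gene (0.13 and 0.14, beside 0.46), and Slc35b1 averaged 52.0 ± 11.5 TPM in liver, 48.5 ± 4.67 TPM in pancreas and 78.1 ± 9.87 TPM in duodenum.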

How the data were processed

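RNA of sorted migratory DCs was measured in 12 libraries, 4 per tissue. Quantification used kallisto, and the build is GRCm39, per the submitters' processing notes. Not given in the sources used here: tool version, transcript index, annotation and strandedness. The authors deposited estimated counts and TPM per gene, with 1 column per library. The edgeR 4.0.16 test (R 4.3.3) used estimated counts after rounding. Genes passed filterByExpr (minimum count 10), which kept 44624 genes and all 10 members, libraries were scaled by TMM, and 1 robust quasi-likelihood model without a block was fitted to the 12 libraries. An SE is the absolute log2 difference over the square root of F. The smallest group has 4 pools of 2 mice. TPM was used as deposited for levels and ratios, with 0.1 TPM added in ratios. Centred log2 CPM used a prior count of 2. Alternatives were DESeq2 1.42.0, limma 3.58.1 on log2 TPM with 1 or 0.1 added, other scalings and filters, fits of 8 libraries, a non-robust fit, a replicate block, and leaving libraries out.

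The members and lists were chosen with earlier results of these data known. Named were the 10 members, up to 3 called genes per list, comparison and direction with the largest absolute difference and a mean of at least 1 TPM in a tissue, and the 2 nearest profiles of each called member, without predicted genes and antigen receptor segments. Of 202 list entries 201 matched a symbol.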

Additional observations from a re-analysis of the deposited data

Results flagged for a closer look

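For the 35 genes tested, 10 members and 25 others, each tissue's 4 TPM values were searched for a library far from the other 3. Of 105 such groups 9 had one, where chance gives about 5% of groups. Among the TNF superfamily genes, Cd70 was at 0.0771 TPM in liver 3, while the other liver libraries stood between 1.21 and 1.23 TPM, and at 0.331 TPM in duodenum 1, with the other duodenum libraries from 0.0655 to 0.106 TPM. In duodenum 2, Cd27 was the lowest at 4.84 TPM (others 7.59 to 8.12), as was Tnfrsf26 at 1.15 TPM (others 1.72 to 1.75). In liver 1, Ptgs2 was the highest at 0.234 TPM (others 0.0398 to 0.0537), as was Zfp36l2 at 95.8 TPM (others 48.6 to 50.9). In pancreas, Tnfrsf17 was the highest in pancreas 4 at 0.207 TPM (others 0.104 to 0.112), Tnfrsf18 the highest in pancreas 3 at 29.8 TPM (others 23.8 to 24.2), and Zfp36 the lowest in pancreas 2 at 15.9 TPM (others 22.9 to 24.3).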

How the results depend on the processing

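Each comparison was recomputed under 24 alternatives, 2 of which were chosen after seeing the data. The counts of called members below go with 3, 5 and 0 of 10 in liver against duodenum, pancreas against duodenum and liver against pancreas. DESeq2 called 5 members in the first, 7 in the second and 2 in the last. In the last, library totals and a mean of at least 1 CPM each called 2, and limma on TPM with 1 or 0.1 added called 1. Leaving out 1 library gave 2 to 4, 3 to 6 and 0 to 1 members. Without liver 2, pancreas 3 and pancreas 4, the libraries of those tissues with the most plasma cell marker RNA, 3 members were called in pancreas against duodenum (Tnfrsf4, Fas and Ltb). That setting called 2069, 1712 and 177 of all genes in the 3 comparisons, against 3265, 3437 and 494 with all libraries. It ended these calls: Tnfrsf1a, Cd40, Tnfrsf13c, Birc2, Cflar, Furin, Relb and Ccl2 in liver against duodenum; Tnfrsf1a, Tnfrsf1b, Tnfrsf9, Cd27, Tnfrsf18, Tnfrsf13b, Tnfrsf23, Traf1, Birc2, Map3k14, Chuk, Furin and Relb in pancreas against duodenum; and Tnfrsf26, Ikbkb and Zfp36 in liver against pancreas. Without duodenum 2 and pancreas 1, 4913 genes were called in liver against duodenum. DESeq2 called 5133 and 1171 genes in liver against duodenum and liver against pancreas, and for liver against pancreas library totals gave 820 and the filter at 1 CPM 946. Leaving out 1 library gave 2397 to 4807, 2596 to 4716 and 343 to 749 genes.

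Whether same-numbered libraries came from the same mice is not given in the labels. Deviations of same-numbered libraries correlated at -0.0406 to 0.0923 over 12 pairs, and those of differently numbered libraries at -0.134 to 0.122. Such correlations cannot settle it, since the source of the mice was not recorded in the labels. With the replicate number as a block, 2 members were called in liver against duodenum (Tnfrsf4 and Fas), 6 in pancreas against duodenum (Tnfrsf4, Fas, Tnfrsf1b, Tnfrsf9, Ltb and Tnf) and 2 in liver against pancreas (Tnf and Tnfrsf1b), and 2931, 3125 and 436 genes. Tnfrsf1a was not called against duodenum in liver or in pancreas under the block (adjusted p = 0.0568 and 0.0521, edgeR).

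Signs turned for differences near 0 that were not called. Tnfsf9 in pancreas against duodenum was at -0.08 with DESeq2 size factors and with DESeq2, -0.02 without a filter, -0.24 without duodenum 2 and pancreas 1, and -0.30 to 0.22 with 1 library left out. Without duodenum 2 and pancreas 1, liver against pancreas was at -0.08 for Tnfrsf1a and -0.25 for Ltb. With 1 library left out, Tnfrsf1a ran from -0.09 to 0.16, Fas from -0.17 to 0.35 and Ltb from -0.25 to 0.80 in liver against pancreas, Tnfrsf1b from -0.10 to 0.28 in liver against duodenum, and Tnfsf4 from -0.10 to 0.61 in pancreas against duodenum. The cause of these changes was not tested. Having 4 libraries per tissue and TPM near 1 or lower limits what can be said of Cd70 and Tnfsf4.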

Other observations

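Within liver, liver 3 had the highest level of the 4 libraries for Tnf (9.55 TPM), Tnfsf9 (4.59 TPM), Tnfrsf1b (7.16 TPM) and Tnfrsf9 (2.53 TPM), and the lowest for Cd70 (0.0771 TPM) and Tnfsf4 (0.00885 TPM). The plasma cell markers summed to 104 TPM in that library, and the T cell markers to 8.65 TPM, the lowest of the 4 liver libraries. This was picked after the values were seen.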
